A study of Homo sapiens with 6 samples.

Results

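The genes examined were 10 members of the NRF2, glutathione and thioredoxin systems, taken by name as NFE2L2, KEAP1, MAFG, GCLC, GCLM, GSR, TXN, TXNRD1, PRDX1 and NQO1. All 10 were found on the array through the platform annotation, as 14 of the 22215 probe sets tested and as 10 of the 11963 genes that a probe set names alone. They were measured in SH-SY5Y cells, an established neuroblastoma line that is a single subclone of SK-N-SH and serves as a neuron-like model, after 4 h in medium with free bilirubin at 140 nM (Bf 140 nM, 3 arrays) or with the solvent dimethyl sulfoxide at 0.6% (DMSO 0.6%, 3 arrays). The bilirubin was itself dissolved in DMSO, so both groups carried the solvent. The comparison addresses whether an early exposure to unconjugated bilirubin (UCB), for which oxidative damage and loss of glutathione have been described, is met by the transcripts of the antioxidant response.

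NRF2, encoded by NFE2L2, is a transcription factor that turns over quickly in resting cells because the cysteine-rich protein KEAP1 presents it to a ubiquitin ligase. Electrophiles and oxidants modify KEAP1, and the spared NRF2 enters the nucleus and binds antioxidant response elements together with a small MAF protein such as MAFG. Its targets hold the enzymes that make and recycle glutathione (GCLC, GCLM, GSR), those of the thioredoxin cycle (TXN, TXNRD1, PRDX1) and the quinone reductase NQO1. Since NRF2 is governed mostly at the level of the protein, its target transcripts are the usual readout of its activity on arrays.

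The letters through which NRF2 is known to act were looked up in the RefSeq promoter windows of these genes (GRCh38.p14, 250 bases before to 50 after each annotated start), to show which members carry the element close to a start. The core searched was TGACNNNGC on both strands, so that it reads GCNNNGTCA when it lies on the strand opposite to the gene. Windows were found for 8 of the 10 genes, with none for GSR and PRDX1. These genes had 11 windows, of which 4 held the core, against 4687 of all 35116 windows (13.3%). The 4 belong to KEAP1, GCLM and TXNRD1, and a second window of KEAP1 held none. The stretches below are written 5′ to 3′ on the strand of the gene, with each core in capitals. They lie at chr19:10502778-10502841 (minus strand) for KEAP1, chr1:93909440-93909480 (minus strand) for GCLM, and chr12:104215664-104215704 and chr12:104286914-104286954 (plus strand) for the upstream and downstream starts of TXNRD1.
KEAP1: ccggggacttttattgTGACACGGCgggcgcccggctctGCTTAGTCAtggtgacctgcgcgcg
GCLM: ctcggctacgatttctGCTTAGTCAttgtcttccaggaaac
TXNRD1 upstream: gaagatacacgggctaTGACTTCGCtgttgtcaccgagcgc
TXNRD1 downstream: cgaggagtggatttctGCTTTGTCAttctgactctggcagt
The cores begin 54 and 31 bases before the start of KEAP1, 34 before that of GCLM, and 99 and 102 before those of TXNRD1. The KEAP1 and GCLM stretches share the 9 letters GCTTAGTCA. The upstream start of TXNRD1 has a further core that overlaps the start itself. A match describes the letters only, and a window without one says nothing about elements further away.

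Each value below is a log2 level after normalization, and each difference is the Bf 140 nM mean minus the DMSO 0.6% mean. Properties of the arrays that touch these values come first. DMSO replicate 3 had a difference of 2.21 between the 3' and 5' control probe sets of beta-actin, a sign of incomplete transcripts, while the other 5 arrays lay between 0.105 and 0.885. The spread of values also varied between arrays, with interquartile ranges from 2.25 on Bf 140 nM replicate 2 to 2.66 on Bf 140 nM replicate 3. Of the 13 noradrenergic markers measured, which should define the line, 10 lay between the 91.4th and the 99.0th percentile of the arrays. MYCN (47.7 to 52.7) and HAND2 (41.3 to 48.7) lay near the middle, and TH, which encodes the first enzyme of catecholamine synthesis, stayed between 7.56 and 15.7. The summed level of 13 noradrenergic markers spanned 15.50 to 15.95 (log2) in Bf 140 nM and 15.61 to 15.76 in DMSO 0.6%, and that of 11 mesenchymal or Schwann-like markers spanned 11.91 to 12.34 and 11.83 to 12.37 in the same groups. Among these 11, COL3A1 (75.2 to 91.4) and FN1 (80.6 to 86.0) had the highest percentiles and weigh most in the sum. The lowest were CD44 (18.0 to 24.2) and PRRX1 (11.6 to 16.3).

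Most of the genes gave a strong signal. The percentile of a probe set among the 22215 of its own array describes its signal, which also depends on how well its probes bind, and does not rank transcripts between genes. PRDX1 stayed between the 98.0th and the 98.5th percentile on the 6 arrays. The main probe set of TXN lay between 95.1 and 97.2, and that of TXNRD1 between 94.5 and 96.3. NFE2L2 spanned 77.4 to 89.4, NQO1 79.3 to 84.9 by its brightest probe set, KEAP1 75.7 to 80.4, GCLM 70.5 to 79.1 and GCLC 74.9 to 77.1. MAFG (64.6 to 72.3) and GSR (58.2 to 67.2) were lower. The second probe set of TXN, 216609_at, was the only one of the 14 that fell below the middle of any array, with a span of 28.2 to 64.2.

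**Figure D1:**
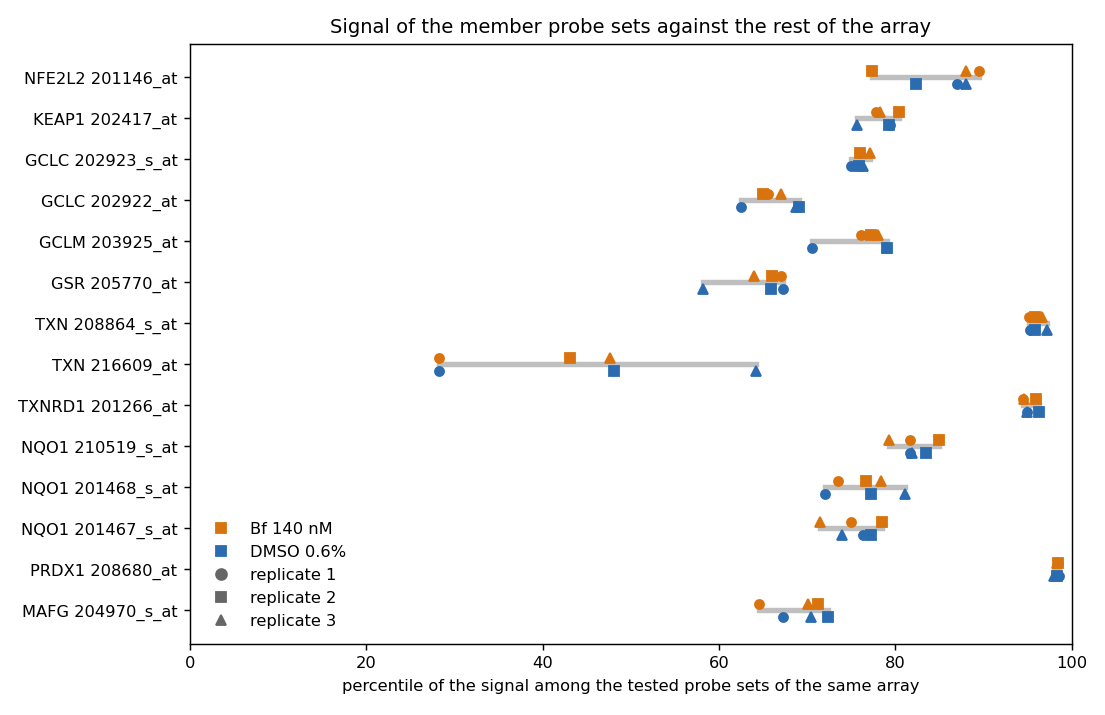
Percentile of the signal (x axis) of each of the 14 probe sets (y axis) among the tested probe sets of the same array, the Bf 140 nM arrays in orange above the DMSO 0.6% arrays in blue; circles, squares and triangles stand for replicates 1, 2 and 3, and grey bars the span over 6 arrays. PRDX1 stays at 98.0 to 98.5, while the TXN probe set 216609_at spans 28.2 to 64.2.

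No member differed between the groups past the threshold. In limma, 0 of the 14 probe sets had an adjusted p under 0.10, where the percentage called over the whole array was 0%, and 0 of 14 had an unadjusted p under 0.05, against 0.0765% of the array. The 3 Bf 140 nM values lay wholly on one side of the 3 DMSO 0.6% values for 0 of 14, against 2.66% of the array (1.68% with Bf 140 nM higher and 0.981% with it lower). With the replicate number as a block in the fit, 0 of 14 had an unadjusted p under 0.05, against 0.414% of the array. At shares this low over the whole array, 0 of 14 does not set the members apart from other probe sets. Both shares with an unadjusted p under 0.05 were far below the level of 0.05 that evenly spread p-values would give. The p-values thus ran high over the array, and an absence of calls says little about small differences. The cause was not tested. The difference was above 0 for 10 of 14 and ranged from -0.33 for TXN 216609_at to 0.17 for GSR. The 95% confidence interval stayed within a 2-fold change in both directions for 13 of 14 and within a 1.5-fold change for 10 of 14. With the replicate block, which takes out the spread between same-numbered pairs, the intervals lay within 2-fold for 14 of 14 and within 1.5-fold for 13 of 14, with 0.799 to 1.31 for NFE2L2 and 0.631 to 1.00 for TXN 216609_at. These are values of whole flasks, in which fewer cells of a kind and less transcript per cell cannot be told apart.

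**Figure D2:**
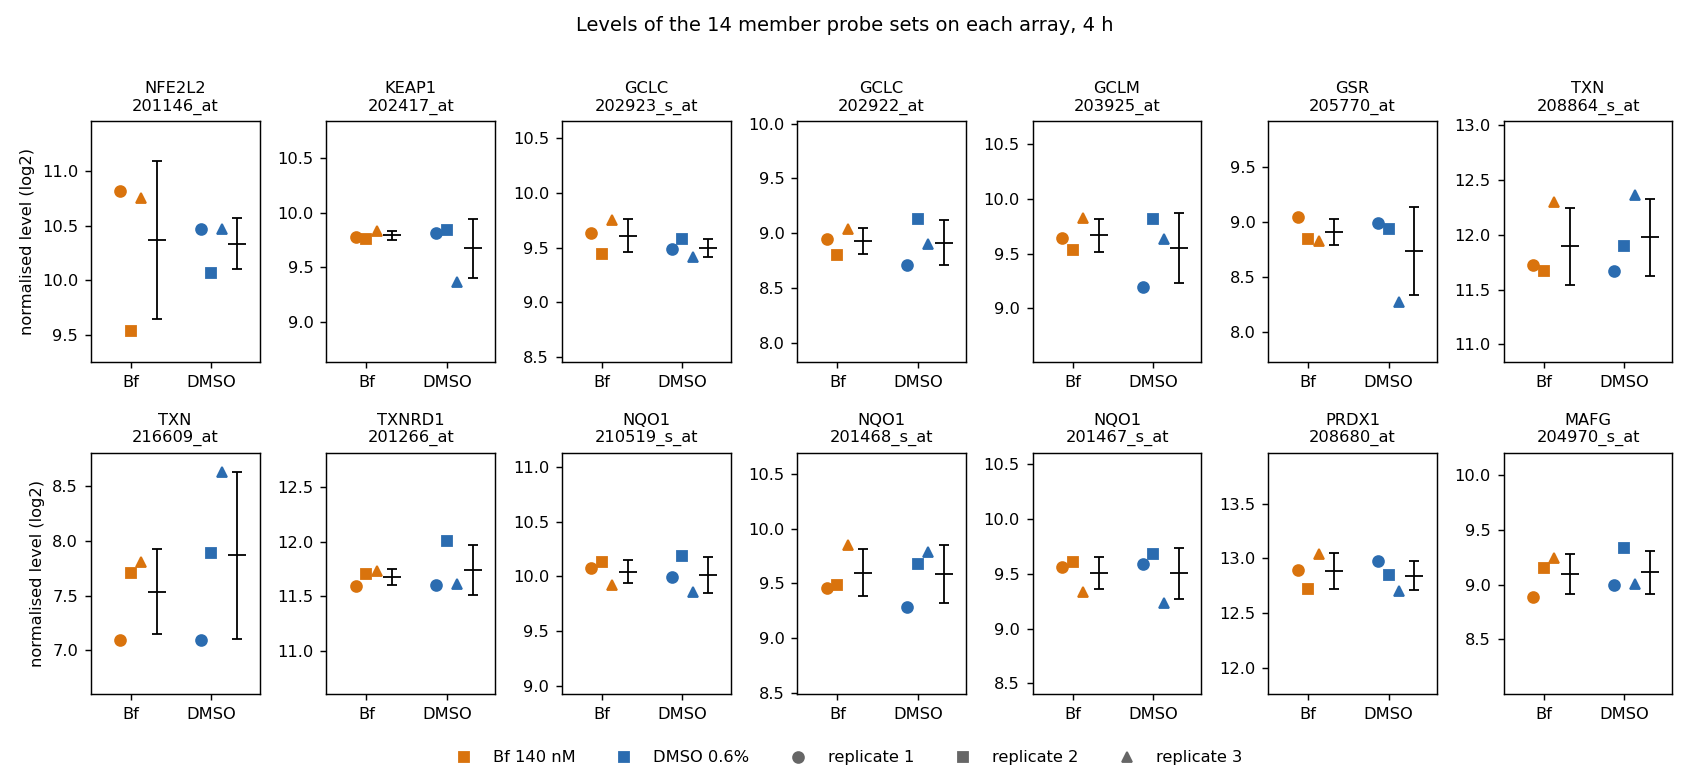
Normalised level (log2, y axis) of each of the 14 probe sets on the 3 Bf 140 nM arrays (orange) and the 3 DMSO 0.6% arrays (blue) at 4 h; circles, squares and triangles stand for replicates 1, 2 and 3, black bars the mean and SD of 3 arrays, and each panel spans 2.2 log2 units. In all panels the groups overlap, and NFE2L2 is lowest on Bf 140 nM replicate 2, at 9.54.

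The regulators were considered first. NFE2L2 had levels of 10.82, 9.54 and 10.75 in Bf 140 nM replicates 1, 2 and 3, and of 10.47, 10.07 and 10.47 in DMSO 0.6% replicates 1, 2 and 3. Bf 140 nM replicates 1 and 3 were the highest of the 6 arrays and replicate 2 the lowest, so the treated arrays enclosed the controls. The means were 10.37 ± 0.72 and 10.34 ± 0.23 (SD, n = 3 each), a ratio of 1.02 with a 95% interval of 0.595 to 1.76, the widest upward of the 14. Its span of 1.28 over the arrays was matched or exceeded by 2.71% of probe sets. Without Bf 140 nM replicate 2 the difference of NFE2L2 was 0.45 in place of 0.03, and without Bf 140 nM replicate 1 it was -0.19, none of them past the threshold. Within same-numbered pairs 1, 2 and 3 its differences were 0.35, -0.53 and 0.28.

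KEAP1 had levels of 9.78, 9.76 and 9.84 in Bf 140 nM and of 9.81, 9.84 and 9.37 in DMSO 0.6%. Apart from DMSO replicate 3 the arrays lay within a narrow band, and the means of 9.79 ± 0.04 and 9.67 ± 0.27 (SD, n = 3 each) gave a ratio of 1.09 (0.860 to 1.37). The difference of 0.12 was -0.03 without DMSO replicate 3, the array with the beta-actin difference of 2.21, and 0.05 when the beta-actin value of each array entered the fit. MAFG, the small MAF partner, had 8.89, 9.15 and 9.25 in Bf 140 nM and 8.99, 9.34 and 9.01 in DMSO 0.6%. Its values were interleaved, with a ratio of 0.989 (0.784 to 1.25).

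The enzymes of glutathione synthesis and recycling had, together with KEAP1, the 4 most positive differences among the 10 genes, though none passed. GCLC encodes the catalytic subunit of glutamate-cysteine ligase, which sets the pace of glutathione synthesis. Its main probe set, 202923_s_at, had 9.63, 9.45 and 9.75 in Bf 140 nM and 9.49, 9.58 and 9.41 in DMSO 0.6%. Bf 140 nM replicates 1 and 3 were above all DMSO 0.6% arrays and replicate 2 was below 2 of the 3, with a ratio of 1.08 (0.901 to 1.30). The second GCLC probe set, 202922_at, had a ratio of 1.01 (0.812 to 1.25).

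GCLM, the modifier subunit of the same ligase, had 9.64, 9.53 and 9.82 in Bf 140 nM and 9.19, 9.82 and 9.63 in DMSO 0.6%. DMSO replicate 1 was the lowest array, and without it the difference of 0.12 turned to -0.06. The ratio with all arrays was 1.09 (0.820 to 1.44). GSR, the reductase that returns oxidised glutathione to its thiol form, had 9.04, 8.85 and 8.83 in Bf 140 nM and 8.99, 8.93 and 8.27 in DMSO 0.6%. Only DMSO replicate 3 stood away from the rest, as for KEAP1. The ratio of 1.13 (0.818 to 1.56) was the highest of the 14, and the difference of 0.17 was -0.06 without DMSO replicate 3 and 0.06 when the beta-actin value entered the fit.

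In the thioredoxin cycle no difference passed, and all lay between -0.33 and 0.04. Thioredoxin, which reduces disulfides in proteins, is encoded by TXN. Its main probe set, 208864_s_at, had 11.72, 11.66 and 12.30 in Bf 140 nM and 11.67, 11.90 and 12.36 in DMSO 0.6%. Replicate 3 was the highest array in both groups, and the ratio was 0.946 (0.653 to 1.37). Without DMSO replicate 3 its difference of -0.08 was 0.11, and without Bf 140 nM replicate 3 it was -0.28. Without both replicate 3 arrays the difference was -0.09.

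The dim TXN probe set, 216609_at, had 7.09, 7.71 and 7.81 in Bf 140 nM and 7.10, 7.88 and 8.62 in DMSO 0.6%. Replicate 1 was the lowest array in both groups. DMSO replicate 3, the array with the beta-actin difference of 2.21, was the highest of all. The differences in pairs 1, 2 and 3 were -0.0030, -0.17 and -0.82, the largest in the pair that holds that array. The ratio of this probe set, 0.795 (0.433 to 1.46), lay farthest from 1 among the 14. Its span of 1.53 over the arrays was matched or exceeded by 1.35% of probe sets. It is the member whose interval reached beyond a 2-fold change, and folds of dim probe sets are understated on this scale.

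TXNRD1, the selenoprotein that passes electrons from NADPH to thioredoxin, had 11.60, 11.70 and 11.73 in Bf 140 nM and 11.60, 12.00 and 11.62 in DMSO 0.6%. DMSO replicate 2 alone stood above the other arrays. The ratio was 0.957 (0.771 to 1.19), and without DMSO replicate 2 the difference of -0.06 was 0.07. PRDX1, a peroxidase that thioredoxin keeps reduced, had 12.89, 12.72 and 13.04 in Bf 140 nM and 12.97, 12.85 and 12.70 in DMSO 0.6%. Highest and second lowest of the 6 values both belonged to Bf 140 nM, with a ratio of 1.03 (0.842 to 1.26).

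NQO1, which reduces quinones and is among the best known NRF2 targets, was measured by 3 probe sets. The brightest, 210519_s_at, had 10.07, 10.13 and 9.93 in Bf 140 nM and 9.99, 10.18 and 9.86 in DMSO 0.6%. In both groups replicate 2 was the highest and replicate 3 the lowest, and the ratio was 1.02 (0.842 to 1.24). The probe sets 201468_s_at and 201467_s_at had ratios of 1.01 (0.767 to 1.33) and 1.00 (0.790 to 1.27). On 201468_s_at replicate 3 was instead the highest array in both groups, at 9.85 in Bf 140 nM and 9.79 in DMSO 0.6%, while on 201467_s_at it was the lowest, at 9.34 in Bf 140 nM and 9.24 in DMSO 0.6%. The 3 probe sets of NQO1 thus disagreed on the order of the replicates but each gave a difference of at most 0.03 between the groups.

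**Figure D3:**
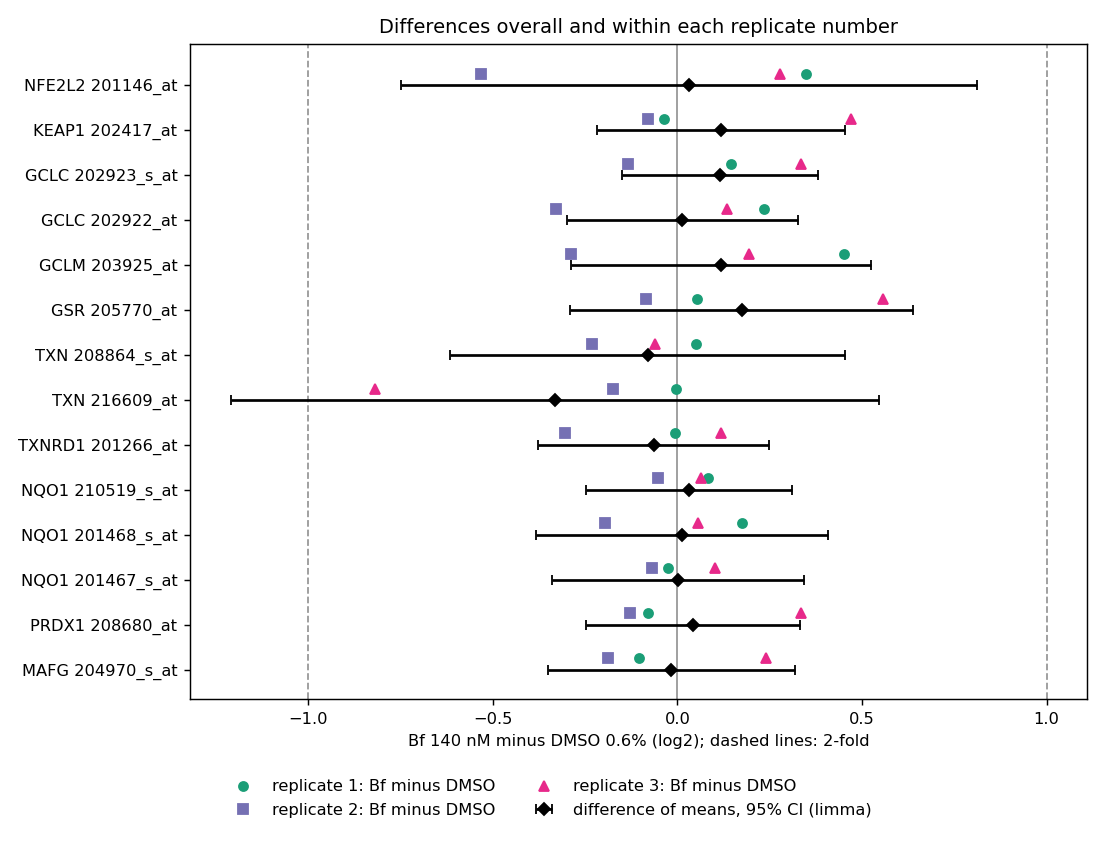
Difference between Bf 140 nM and DMSO 0.6% (log2, x axis) for each probe set (y axis); black diamonds and bars give the difference of means with its 95% confidence interval from limma, coloured markers the difference within each replicate number, and dashed lines a 2-fold change. All 14 replicate 2 differences lie below 0, and 12 of 14 replicate 3 differences lie above 0.

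The members were then compared within pairs of same-numbered arrays, where most had the same sign. The difference in pair 2 was below 0 for 14 of 14 probe sets, with a median of -0.18 and values from -0.05 for NQO1 210519_s_at to -0.53 for NFE2L2. In pair 3 it was above 0 for 12 of 14, with a median of 0.16 and the highest values for GSR (0.56), KEAP1 (0.47) and PRDX1 (0.34). Both exceptions in pair 3 were TXN probe sets, at -0.06 and -0.82. In pair 1 it was above 0 for 8 of 14, led by GCLM (0.45) and NFE2L2 (0.35). The sign was the same in all 3 pairs for 1 probe set, TXN 216609_at, at -0.0030, -0.17 and -0.82 in pairs 1, 2 and 3. Pair 2 was the least closely matched, with a correlation of 0.23 between the deviations of its arrays from their group means.

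The other bright probe sets of the arrays had a like split of signs. Over all probe sets 50.9% were below 0 in pair 2. Among the 7838 with a mean of at least 8.82, the level of the dimmest member apart from TXN 216609_at, 83.8% were below 0 in pair 2, with a median of -0.16, and 17.8% were below 0 in pair 3, with a median of 0.24. When the arrays were brought to a common distribution by quantile normalization, 8 of 14 members were below 0 in pair 2 and 9 of 14 in pair 3, against 50.6% and 49.96% of the same bright probe sets in pairs 2 and 3. The member medians were then -0.03 in pair 2 and -0.08 in pair 3.

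The levels of the members over the 6 arrays were also compared with each other, as a description in which every point shares its array with the rest. KEAP1 and GSR were the closest pair (Pearson r of 0.93, n = 6 arrays), both lowest on DMSO replicate 3, followed by TXNRD1 and MAFG (0.88), both highest on DMSO replicate 2. GSR and TXN were the most opposed (-0.75). NFE2L2 had r of 0.57 with GCLC, 0.62 with PRDX1 and -0.58 with NQO1. Among 6847 other genes with a level above the median probe set, the profiles most like that of NFE2L2 were those of RARS1 and TARS1, the arginyl- and threonyl-tRNA synthetases, and of the carboxypeptidase CPD by its brightest probe set, with r of 0.998, 0.994 and 0.992 (n = 6 arrays). RARS1 had 11.77, 11.29 and 11.76 in Bf 140 nM and 11.63, 11.47 and 11.65 in DMSO 0.6%. By these probe sets all had their lowest value on Bf 140 nM replicate 2, but with spans of 0.48, 0.57 and 0.84, below the 1.28 of NFE2L2. The other CPD probe sets were instead lowest on DMSO replicate 3, at 8.71, 8.19 and 6.86, with a span of up to 1.73.

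Genes around the members were then described in 5 lists, each gene by its brightest probe set. By these probe sets none of their measured genes had an adjusted p under 0.10 in limma or an unadjusted p under 0.05, with or without the replicate block, and in none did the groups separate. Few genes did so anywhere. Of all 11963 genes, 13 had an unadjusted p under 0.05 in limma, and 38 with the replicate block. The groups separated in 220 with Bf 140 nM higher and in 99 with it lower. All 11963 genes had a median difference of 0.03 with 63.7% above 0, the 10 members a median of 0.04 with 7 above 0. The list of NRF2 control, which holds MAF and BACH proteins and the ubiquitin ligase parts, had a median of 0.05 with 11 of 14 above 0. Its extremes were GSK3B, a kinase that marks NRF2 for degradation, at 0.20 (-0.01 without Bf 140 nM replicate 3) and BTRC, the ligase adaptor that reads this mark, at -0.08. BACH1, the repressor that competes with NRF2 for its sites, had 8.88, 8.11 and 8.60 in Bf 140 nM and 8.73, 8.36 and 8.27 in DMSO 0.6%. Like NFE2L2 it was lowest on Bf 140 nM replicate 2 and highest on Bf 140 nM replicate 1.

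In the list of glutathione synthesis and recycling 14 of 22 genes were above 0, and the median was 0.06. They ranged from the methylglyoxal-detoxifying enzyme GLO1 (-0.09) to the extracellular peroxidase GPX3 (0.24). GPX3 was at 8.30 on DMSO replicate 3 and between 9.05 and 9.43 on the other arrays, and without DMSO replicate 3 its difference was -0.12. GPX4, the peroxidase that protects membrane lipids, had a ratio of 1.06 (0.864 to 1.31). The cystine transporter gene SLC7A11 was dim, between the 43.9th and 50.8th percentile by its brightest probe set, with differences of 0.07, 0.19 and 0.09 for its 3 probe sets. Glutathione transferases had a median of 0.03 with 12 of 18 above 0, from GSTM5 (-0.07) to GSTK1 (0.21).

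In the thioredoxin and peroxiredoxin list 9 of 18 genes were above 0, and the median was -0.0037. The lowest was TMX1, a thioredoxin-like protein of the endoplasmic reticulum (ER) membrane, at -0.15, whose second probe set was at 0.28. The highest was TXNIP, which binds and inhibits thioredoxin, at 0.22. By its brightest probe set TXNIP had 10.56, 9.64 and 9.95 in Bf 140 nM and 10.17, 9.68 and 9.64 in DMSO 0.6%. Replicate 1 was the highest array in both groups. Its other probe sets gave 0.42 and 0.34, in which pair 2 had 0.06 and -0.11. In limma with the replicate block their unadjusted p was 0.0112 and 0.0459, with an adjusted p of 1.00 for both. Without Bf 140 nM replicate 1 the 3 TXNIP differences were -0.03, 0.12 and 0.03. That setting keeps DMSO replicate 1, the highest DMSO array, so it also carries the difference between replicates. Within pairs 2 and 3 the brightest probe set had -0.04 and 0.31.

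The remaining NRF2 targets had a median of 0.01 with 15 of 27 above 0. PGD, which makes NADPH in the pentose phosphate pathway, had 11.17, 11.03 and 10.83 in Bf 140 nM and 11.14, 11.10 and 9.77 in DMSO 0.6%. It stood apart only on DMSO replicate 3, the array with the beta-actin difference of 2.21, and without that array its difference of 0.34 was -0.11. At the other end was ABHD4, a lipase of N-acyl phospholipids, at -0.14. HMOX1, the heme oxygenase that precedes bilirubin formation, was dim at the 35.8th to 39.9th percentile and had 7.39, 7.55 and 7.28 in Bf 140 nM and 7.52, 7.47 and 7.38 in DMSO 0.6%. Its groups overlapped.

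**Figure D4:**
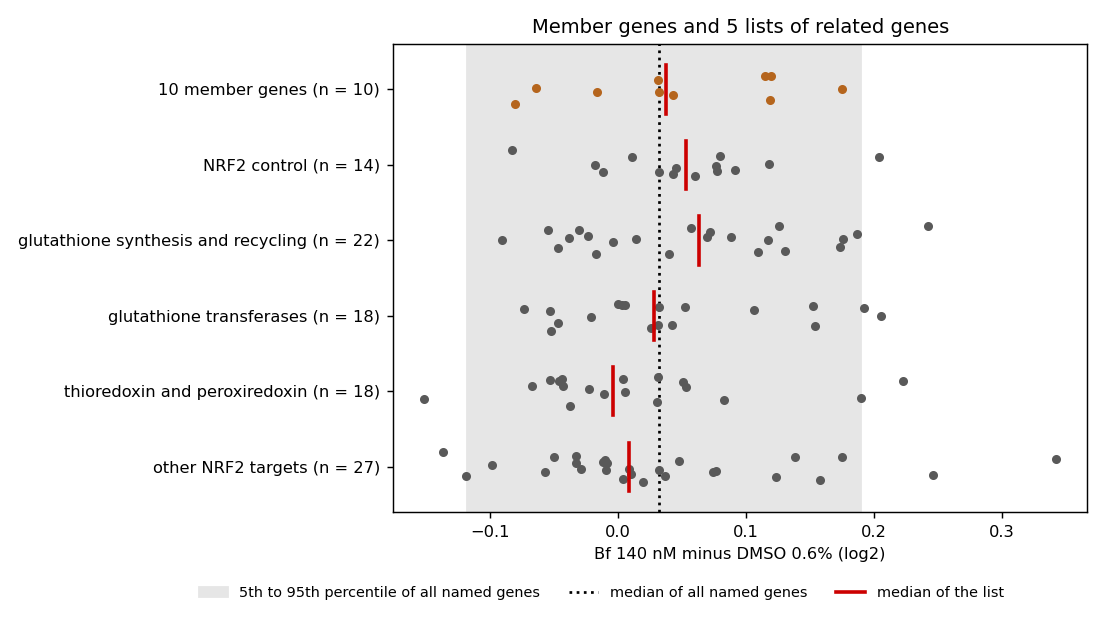
Difference between Bf 140 nM and DMSO 0.6% (log2, x axis) of the member genes and of 5 lists of related genes (y axis), 1 point per gene by its brightest probe set; red lines give the list medians, the dotted line the median of all named genes and the grey band their 5th to 95th percentile. The list medians lie between -0.0037 and 0.06, beside 0.03 for all genes.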

How the data were processed

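The authors hybridised cRNA of 6 flasks to Affymetrix GeneChip human arrays, took cell intensities from the GCOS software and applied variance-stabilizing normalization in R 2.5.0, so the deposited values are generalised log2 levels, compressed for dim probe sets. The summary of probes into probe sets was not given in the sources consulted. Arrays carry no read depth, and their number limits the precision.

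Of 22277 probe sets, 62 controls were left out of the tests and used only for array quality. Symbols came from the platform annotation, updated through Entrez identifiers, and the brightest probe set, by the mean of 6 arrays, stood for its gene. A single symbol was given to 19064 probe sets, and those with several (1043) or none (2108) named no gene. Bf 140 nM minus DMSO 0.6% was tested on all 22215 probe sets with limma (version 3.58.1, R 4.3.3), unpaired and two-sided, with Benjamini-Hochberg adjustment and a threshold of 0.10. SAM, used in the study, builds its null from regrouped samples and was not run. The limma step was tested on simulated data with independent noise for each probe set and array. That test does not cover variation shared between same-numbered arrays or between probe sets. Replicate numbers were taken to pair the arrays, since the deviations of same-numbered arrays from their group means correlated above 0.1. The values were 0.60, 0.23 and 0.57 for replicates 1, 2 and 3. For 5 of 6 arrays the closest match in the other group carried the same number. The exception was DMSO 0.6% replicate 2, which was closer to Bf 140 nM replicate 1, so the pairing is least certain for replicate 2. A fit with the replicate block was run as an alternative. Other alternatives changed the normalization, the variance model, the filter on dim probe sets, the probe set per gene, the threshold and the arrays included.

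The members and lists were chosen with earlier results of these data known. Named were the members with every probe set, 7 further genes (of which SRXN1 is not analysed here), the extremes of each list and the 3 profiles closest to that of NFE2L2.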

Additional observations from a re-analysis of the deposited data

How the results depend on the processing

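No member passed the threshold under any alternative that was run, and the lowest adjusted p of a member was 0.998 by limma. Over the whole array 0 probe sets passed, at thresholds of 0.05 and 0.20 and with the replicate block as well, except that 2 passed, none of them a member, with the replicate block without pair 3, an alternative chosen after seeing the data. The median over probe sets changes no test and has no count. The paired fit changed no call, and with groups of equal size it cannot move a difference. Of 98 member differences outside the leave-one-out settings, 12 turned their sign. The 98 include settings that cannot turn a sign, namely the replicate block alone, the variance model and the filter on dim probe sets. For genes with a single probe set the median over probe sets cannot turn it either. With quantile normalization NFE2L2 was at -0.038 and NQO1 at -0.027, and with array median centring, alone or with the replicate block, at -0.00093 and -0.0011. With the beta-actin covariate TXN was at 0.036 and NQO1 at -0.0080. With the replicate block without pair 3 NFE2L2 was at -0.091, KEAP1 at -0.057, GSR at -0.017 and PRDX1 at -0.10. The list medians turned as well. Without pair 3 they were -0.049 for NRF2 control, -0.0085 for glutathione synthesis and recycling, -0.017 for the transferases and -0.023 for the other NRF2 targets. With quantile normalization the transferases were at -0.022 and the other targets at -0.015, and with array median centring at -0.0042 and -0.024. With the beta-actin covariate the transferases were at -0.0040 and thioredoxin and peroxiredoxin at 0.054, and with the median over probe sets thioredoxin and peroxiredoxin was at 0.012.

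A setting that leaves out 1 array breaks a same-numbered pair, so its differences also carry variation between replicates. Leaving out 1 array at a time turned 16 of 60 member differences. They ranged from -0.19 to 0.45 for NFE2L2, -0.035 to 0.20 for KEAP1, 0.05 to 0.20 for GCLC, -0.058 to 0.25 for GCLM, -0.056 to 0.31 for GSR, -0.28 to 0.11 for TXN, -0.13 to 0.068 for TXNRD1, -0.044 to 0.12 for NQO1, -0.035 to 0.12 for PRDX1 and -0.092 to 0.10 for MAFG. The list medians ranged from -0.02 to 0.11 for NRF2 control, 0.00042 to 0.12 for glutathione synthesis and recycling, -2.7e-05 to 0.076 for the transferases, -0.15 to 0.11 for thioredoxin and peroxiredoxin and 0.0012 to 0.02 for the other targets. The cause of these turns was not tested. MAFG and NQO1 have no probe set left without those ending in _s_at or _x_at.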
